A study of Mus musculus with 14 samples.

Results

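The clustered protocadherins are cell surface adhesion molecules encoded by neighboring gene clusters named alpha, beta and gamma. Members were taken by symbol, as every gene present in both deposited expression tables whose name is Pcdha, Pcdhb, Pcdhga, Pcdhgb, Pcdhgc or Pcdhac followed by a number. This gave 57 of 51211 gene symbols, with 13 in the alpha, 22 in the beta and 22 in the gamma cluster. All 57 passed the filter on low values (mean normalized count of at least 10) in both experiments, so none was lost to it.

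Each neuron transcribes its own small set of these genes by choosing among alternative promoters, and the proteins bind partners of the same kind on other membranes. In this way they let a neuron tell its own branches from those of other neurons, and in olfactory sensory neurons they take part in sorting axons into glomeruli of the olfactory bulb. The alpha and gamma clusters also hold C-type isoforms, which are regulated apart from the alternative isoforms that neurons choose among, and the beta genes lack the shared constant exons that end every alpha and gamma transcript.

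In the mouse genome (GRCm38, GENCODE vM21 annotation) the clusters lie on the plus strand of chromosome 18. The alpha members span 36930184 to 37187661, the beta members 37264938 to 37524479 and the gamma members 37661793 to 37841873. The longest transcript of every beta gene has 1 exon, whereas that of each alpha and gamma gene joins a variable first exon to 3 constant exons used by the whole cluster and so has 4 exons. This structure set how well a read could be assigned. Of 40-base windows, the read length of the Kir2.1 experiment, a median of 92.8% per beta gene occurred in no other gene of the annotation. The medians were 38.3% per alpha gene (9.61% for Pcdha4) and 55.1% per gamma gene. Only sense sequences were compared, so windows shared with an antisense gene counted as unique, although the Kir2.1 libraries are unstranded. For 150-base windows, the read length of the PEA experiment, the medians were 100%, 46.4% and 57.0%. Differences between alpha isoforms therefore rested on less distinguishing sequence than those between beta genes. The symbol Pcdha11 covers 2 annotated genes.

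RNA was measured in whole olfactory epithelium of 14 mice at postnatal day 5 (P5), in 2 experiments normalized separately. In the first, 3 Kir2.1 mice carried OMP-IRES-tTA together with tetO-Kir2.1-IRES-tauLacZ, and 3 control mice, described as littermates, were heterozygous for OMP-IRES-tTA alone. The transactivator is made from the Omp locus, so the potassium channel Kir2.1, which suppresses firing, is driven in cells that express Omp, which are the mature olfactory sensory neurons and, by the study's account, vomeronasal neurons. The other cells of the tissue were sequenced along with them. In the second, 4 wild type mice were exposed to 2-phenylethylamine (PEA), an aversive odor, from P0 to P5 and 4 wild type mice were not. The sample records give the strain as C57BL/6 for all mice, whereas the methods name CD-1 as the strain of exposed pups. In the records the Kir2.1 mice are called Kir2.1-Off, a name used in the methods for animals later fed doxycycline, although these were taken at P5. Each comparison asked whether altered activity in the first postnatal days changed transcription. Values are normalized counts, which keep no record of sequencing depth.

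Kcnj2, which encodes Kir2.1, read 986 to 1274 normalized counts in the control mice and 17926 to 24193 in the Kir2.1 mice. Each mouse of this experiment thus matched its group, and Kcnj2 was not switched off in the mice recorded as Kir2.1-Off. Markers of mature olfactory sensory neurons were present in every mouse. Control mouse 1 of the Kir2.1 experiment, PEA control mice 1, 2 and 3 and PEA-exposed mouse 1 stood apart by RNA of vomeronasal receptor genes, with a mean log2 value between 3.91 and 6.06 against 1.38 to 2.45 in the other 9 mice. Across all genes tested, limma with Benjamini-Hochberg adjustment called 70 of 19807 in the Kir2.1 experiment and 31 of 17322 in the PEA experiment at an adjusted p under 0.05. The study itself tested raw counts with DESeq2 and reported more genes at that threshold in both experiments. Calls given here are those of limma on normalized values, and the study's test was not repeated.

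In control mice, levels differed widely between members. Per kilobase of the longest annotated transcript, Pcdhb1, the first gene of the beta cluster, was the highest in both experiments, with 1223 normalized counts per kb in the Kir2.1 experiment and 391 in the PEA experiment. The C-type isoforms Pcdhgc3 and Pcdhac2 followed, with 839.9 and 367 per kb in the Kir2.1 experiment and 75.0 and 68.6 in the PEA experiment. The lowest members were Pcdha8 at 3.80 per kb in the Kir2.1 experiment and Pcdha1 at 3.83 in the PEA experiment. The cluster medians were 94.1 (alpha), 38.0 (beta) and 76.6 (gamma) per kb in the Kir2.1 controls, and 15.6, 17.2 and 17.7 in the PEA controls. Together the 57 genes made up 0.0836% of all normalized counts in the Kir2.1 controls and 0.0568% in the PEA controls.

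**Figure D1:**
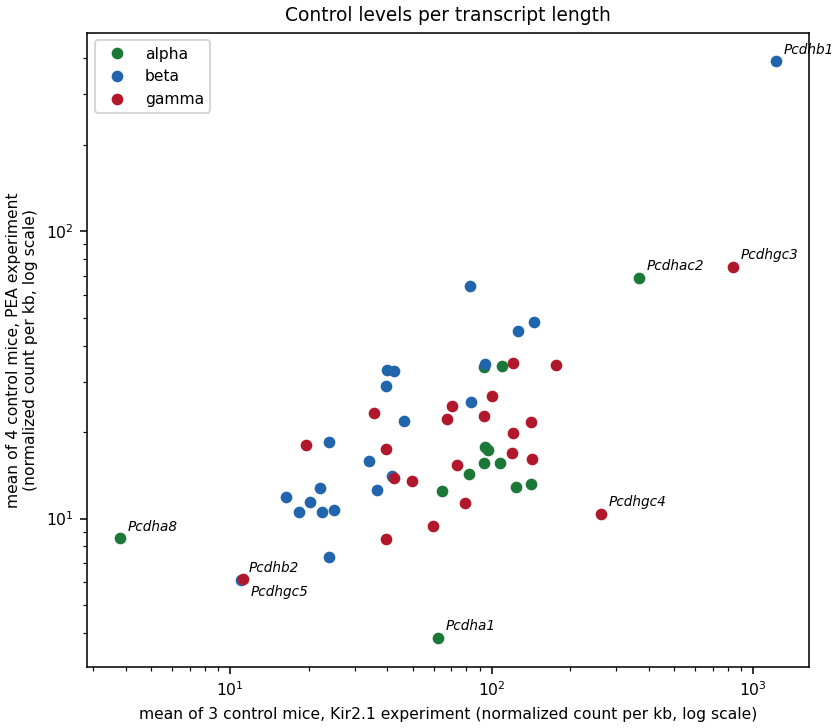
Each point is 1 clustered protocadherin, placed by its mean over the 3 control mice of the Kir2.1 experiment (horizontal, normalized count per kb, log scale) and over the 4 control mice of the PEA experiment (vertical, same unit and scale), colored by cluster. Pcdhb1 lies at the top right of all members at 1223 and 391 per kb, while Pcdhgc4 lies far below the trend at 262 and 10.4.

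The order of the beta genes was much alike in the controls of the 2 experiments, which differed in strain as the methods give it, library preparation and read length. Spearman's rho between the control means was 0.901 across the 22 beta genes, 0.599 across the 13 alpha genes and 0.502 across the 22 gamma genes. These are descriptions across genes, which share libraries and are not independent replicates. Pcdhgc4 had the highest ratio of control means between the experiments, with 1315 ± 256 normalized counts (SD, n = 3) against 52.3 ± 11.4 (SD, n = 4). Its ratio of 25.1 compared with a median ratio of 2.91 over all genes tested in both experiments. The next ratios were 16.3 for Pcdha1, 11.2 for Pcdhgc3 and 10.8 for Pcdha12. The first exon of Pcdhgc3 overlaps the antisense gene BC037039, which read 321 to 405 normalized counts in the Kir2.1 experiment and 14.1 to 27.3 in the PEA experiment. Reads of the 2 strands cannot be told apart in the unstranded libraries of the Kir2.1 experiment. The methods also give 1 reverse-stranded library type for the quantification of both experiments, and its effect on the levels of the unstranded libraries was not tested.

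In the mice whose mature neurons expressed Kir2.1, most clustered protocadherins had lower values. Of the 57 members, 48 had a lower mean log2 value than in the controls and 9 a higher one, with a median log2 fold change of -0.23, against 0.0056 over all genes tested, of which 48.8% were lower. Single tests were much sparser. Only Pcdhb1 was called at an adjusted p under 0.05, and it was lower (background, 0.278% of genes called lower and 0.0757% called higher). An unadjusted p under 0.05 was reached by 11 members, all of them lower, where 6.2% of all genes reached it in that direction and 4.93% in the other. The groups did not overlap for 20 members, all with the Kir2.1 mice below the controls, where 9.04% of all genes did so and 7.26% lay wholly above. Members share libraries, and those of the alpha and of the gamma cluster also share constant exons. Counts of members, here and by cluster, are therefore not counts of independent observations. In whole tissue, fewer cells of a type and less RNA per cell cannot be told apart. For a typical member the 95% confidence interval was 0.75 wide on the log2 scale, so differences of the size of the median could not be resolved gene by gene at this number of mice. Without control mouse 1, 51 of 57 members were lower and 0 called.

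**Figure D2:**
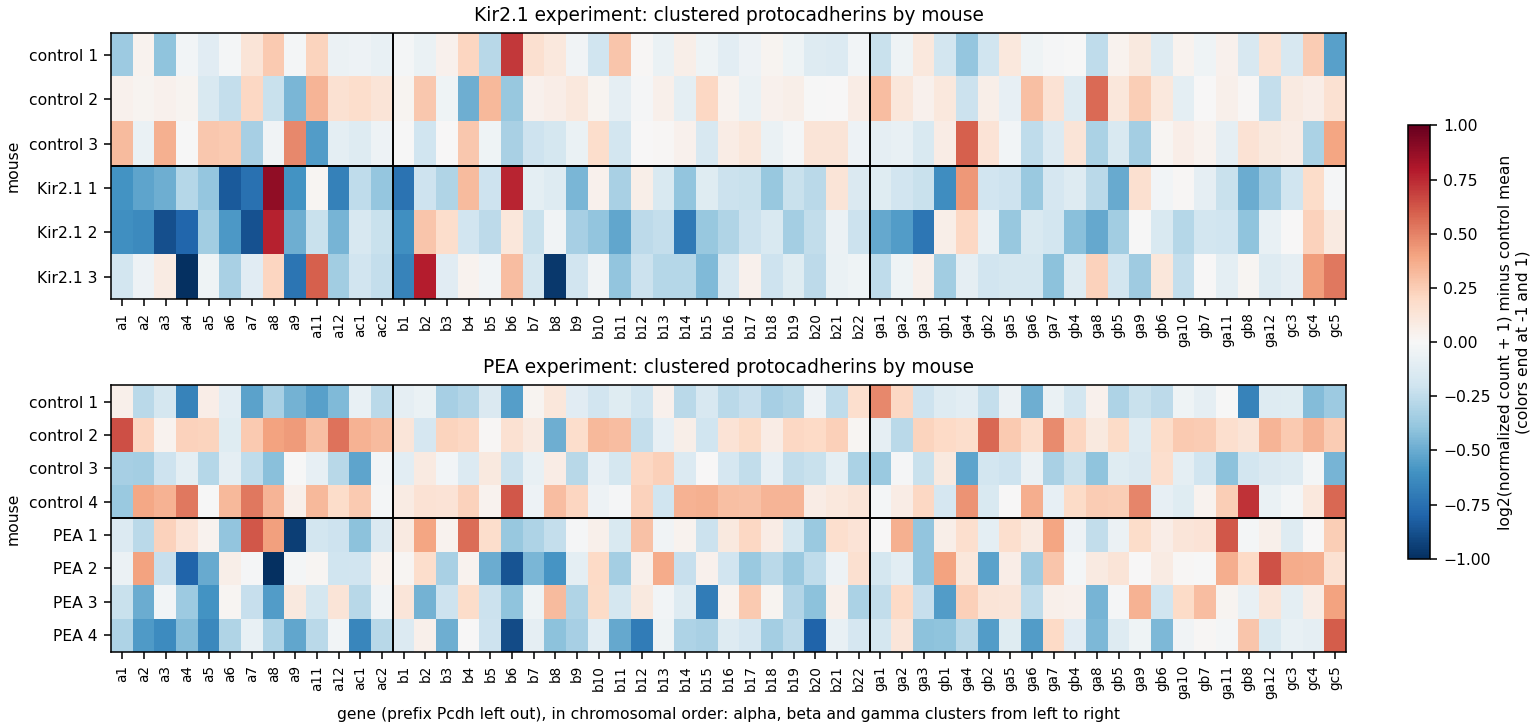
Rows are mice and columns are the 57 clustered protocadherins in chromosomal order, and colors give log2(normalized count + 1) minus the mean of the control mice of the same experiment, with the scale ending at -1 and 1. In the upper panel blue runs across most columns of the 3 Kir2.1 mice, with 48 of 57 members lower on average, while in the lower panel control mice 2 and 4 are redder than control mice 1 and 3 across the clusters.

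The 1 gene called was Pcdhb1 (ENSMUSG00000051663), whose single exon spans 37264938 to 37267525. Its normalized counts were 3117, 3232 and 3149.7 in the 3 control mice and 1901, 2074 and 1996 in the 3 Kir2.1 mice. The groups did not overlap. The mean fell from 3166 ± 59.1 to 1990.2 ± 86.6 (SD, n = 3 each), a log2 fold change of -0.67 with SE 0.066 and a 95% interval of -0.82 to -0.52 (limma, Benjamini-Hochberg adjusted p = 0.0126). A two-sided exact permutation test gave p = 0.1, the smallest that 3 mice against 3 allow. The call was lost, with limma adjusted p between 0.0603 and 0.0921, when control mouse 1, 2 or 3 or Kir2.1 mouse 1 was left out. The log2 fold change then stayed within -0.68 to -0.64. Without control mouse 1, which carried the vomeronasal RNA, it was -0.68 (adjusted p = 0.0691).

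Markers of mature olfactory sensory neurons moved with Pcdhb1. All 9 genes of that list were lower in the Kir2.1 mice, with a median log2 fold change of -0.41, 1 of them called, and summed values of 162607 to 179402 in the controls against 117867 to 131586 in the Kir2.1 mice. None of the 9 was at 0. Omp, the marker of mature neurons whose locus drives the transgene, fell to 0.661 of its control level, on the scale of the log2 means (limma adjusted p = 0.0466), and Pcdhb1 to 0.628. Divided by Omp in the same mouse and multiplied by 1000, Pcdhb1 was 97.6, 101 and 86.9 in the controls and 90.3, 96.7 and 84.9 in the Kir2.1 mice. These ratios overlapped between the groups. Omp had the lowest log2 fold change of the 9 markers, at -0.60, and Cnga2 the highest, at -0.34. All 9 thus fell less than Pcdhb1, at -0.67, and Omp was the nearest to it. Ratios of Pcdhb1 to markers other than Omp were not computed, so the overlap is shown for Omp alone and cannot be extended to the rest. Of the 5 blood markers, 5 were higher, with summed values of 11005 to 19896 against 20242 to 33607, and the 5 fibroblast and 4 horizontal basal cell markers were all higher too, with median log2 fold changes of 0.50 and 0.33 and sums that overlapped. The 4 respiratory ciliated cell markers were also all higher, with summed values of 10704 to 13006 against 13459 to 19598. The 4 olfactory bulb neuron markers that passed the filter were all lower, with summed values of 660.0 to 817 against 578 to 641. Other lists were mixed: 4 of 5 sustentacular, 3 of 6 globose basal and 2 of 6 ensheathing glia markers were lower. Of 96 vomeronasal genes tested, 92 were lower, with summed values of 12314 in control mouse 1 and 1667 to 2119 in the other mice. The part of these cell types in the result was not tested.

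**Figure D3:**
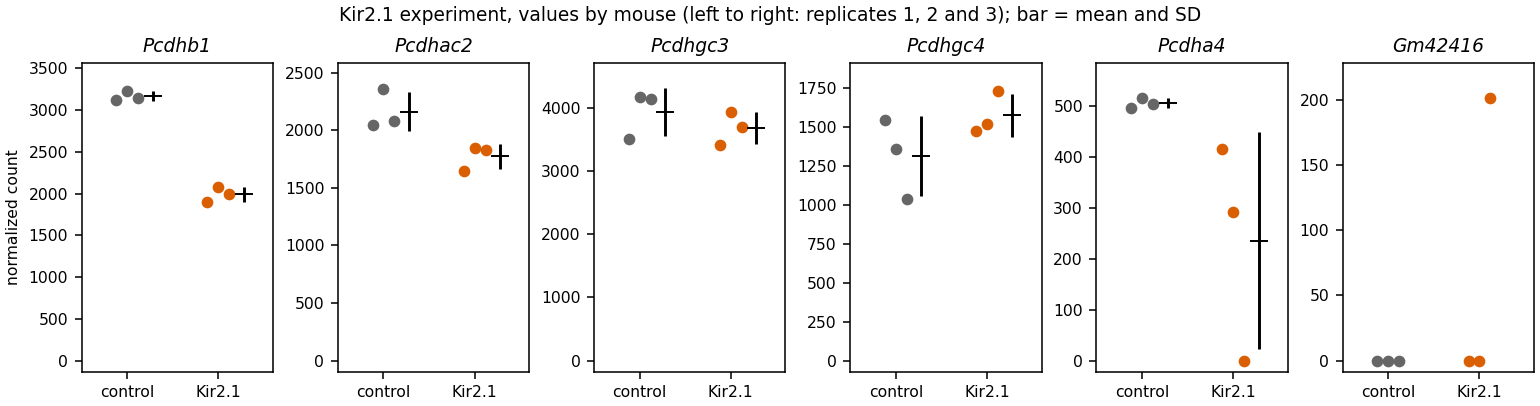
Normalized counts by mouse in the Kir2.1 experiment for 5 clustered protocadherins and the fusion gene model Gm42416, with points for replicates 1 to 3 from left to right and a bar for mean and SD (no bar for Gm42416, which is at 0 in 5 mice). Pcdhb1 and Pcdhac2 do not overlap between groups, Pcdhgc3 and Pcdhgc4 do, and the 0 of Pcdha4 in Kir2.1 mouse 3 coincides with 201 for Gm42416.

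Among the other beta genes, 17 were lower and 4 higher, and none was called. The 22 beta genes together had a median log2 fold change of -0.19. For 9 of the 22, all Kir2.1 mice lay below all controls, a greater share than the 9.04% of all genes. Pcdhb9 read 429.7, 476 and 421 in the controls and 321, 350.0 and 386 in the Kir2.1 mice. Pcdhb14 read 308, 277 and 305 against 225, 180.5 and 243, and Pcdhb11 211, 163 and 152 against 138, 121 and 132. In these 3 genes all Kir2.1 mice lay below all controls, at -0.33, -0.46 and -0.41 on the log2 scale with SE 0.11, 0.14 and 0.17, but limma's Benjamini-Hochberg adjusted p was 0.337, 0.295 and 0.420. Pcdhb17, the third beta gene by level per kb, overlapped between the groups at 570.0, 563 and 638 against 505, 508 and 606. The difference was greater in Pcdhb1 than in the remaining cluster, so that its share of the summed beta counts was 42.1, 43.0 and 42.4% in the controls and 33.7, 36.9 and 34.0% in the Kir2.1 mice. These shares did not overlap.

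The alpha cluster showed the lowest median log2 fold change, -0.43, with 11 of 13 members lower, beside 48.8% of all genes. Of the 13, 6 were lower at an unadjusted p under 0.05 and 6 lay wholly below the controls, beside 6.2% and 9.04% of all genes. It was also the most variable in log2 value, with a median within-group SD of 0.30 on that scale against 0.13 for beta, 0.19 for gamma and 0.18 over all genes. None of its members was called. Pcdha12 read 727, 839 and 707 in the controls and 473, 548 and 594 in the Kir2.1 mice, which did not overlap, with a log2 fold change of -0.49 and SE 0.12 (limma, Benjamini-Hochberg adjusted p = 0.190). Pcdha6 read 428, 368 and 523 against 243, 292 and 348, and Pcdha9 477, 352 and 673 against 319, 345 and 291. Both were lower in every Kir2.1 mouse than in any control, at -0.58 (SE 0.18) and -0.61 (SE 0.23) on the log2 scale (limma adjusted p = 0.295 and 0.381). Pcdha2 and Pcdha7 gave -0.40 (SE 0.16) and -0.58 (SE 0.23), with Kir2.1 mouse 3 inside the range of the controls in each (limma adjusted p = 0.403 and 0.415).

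For Pcdha4 the value in 1 mouse stood beside that of an overlapping gene model. Pcdha4 was listed at 495, 515 and 505 in the controls and at 415, 291 and 0 in the Kir2.1 mice, and that 0 was the only one among all values of the 57 genes. Gm42416, an annotated fusion transcript that starts inside Pcdha4 and ends in the gamma cluster (GRCm38 chromosome 18, 36952741 to 37840200), was at 201 in the same Kir2.1 mouse 3 and at 0 in all 13 other mice. Of its 40-base windows, 84.2% also occur in Pcdha4. The fitted log2 fold change of Pcdha4 was -3.35 with SE 2.1 as deposited, -0.80 (SE 0.24) with Gm42416 added, and -0.54 without Kir2.1 mouse 3 (limma adjusted p = 0.643, 0.284 and 0.305). In that mouse Pcdha11 was at 856, above the other 5 mice of the experiment, which ran from 383 to 714.

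**Figure D4:**
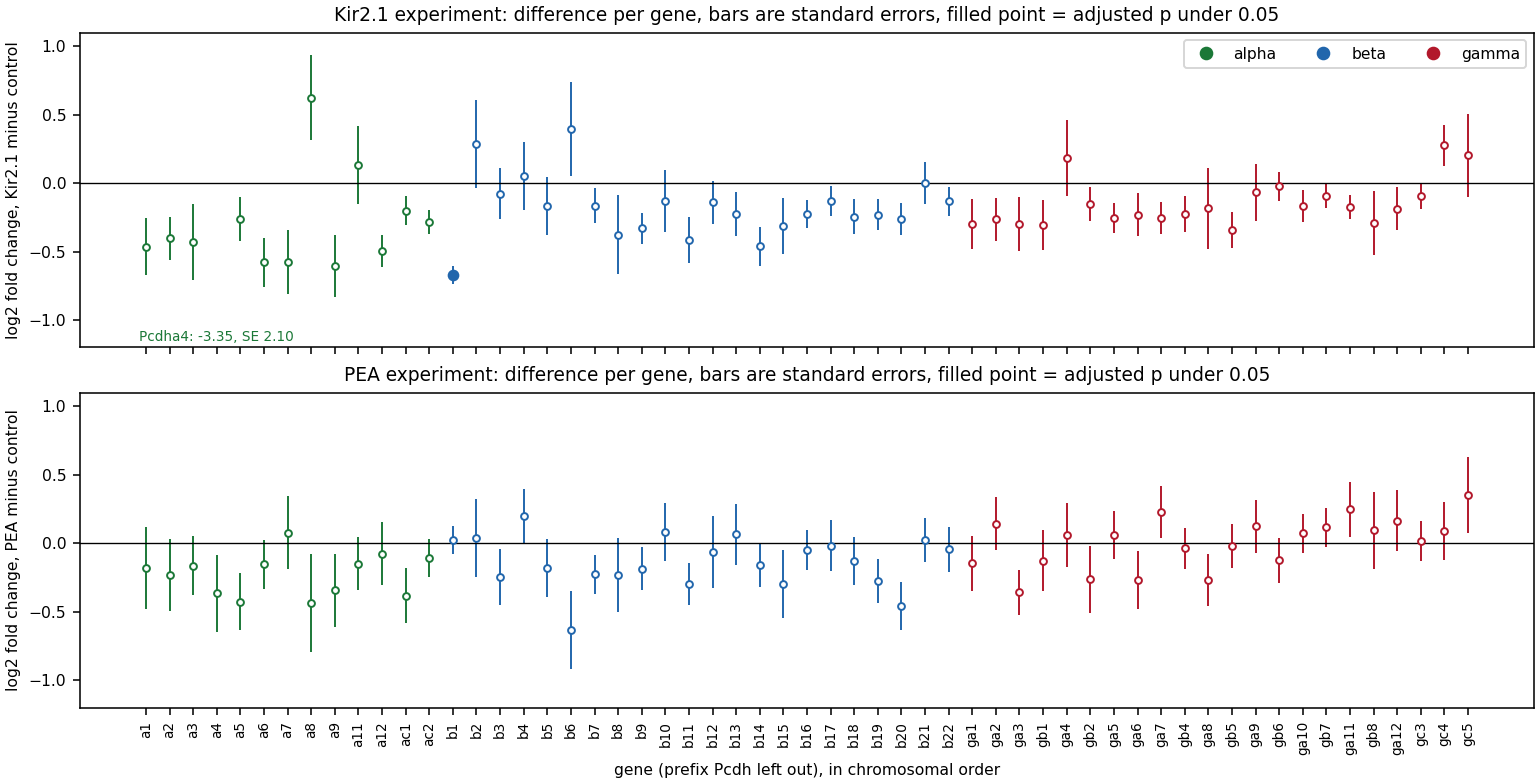
Log2 fold change (Kir2.1 minus control above, PEA minus control below) of each clustered protocadherin in chromosomal order, with bars for the standard error, colors for the cluster and a filled point where the adjusted p was under 0.05. Pcdhb1 carries the only filled point, at -0.67 in the upper panel, and lies at 0.023 in the lower one, while Pcdha4 of the Kir2.1 experiment lies beyond the axis and is given as text.

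The C-type isoforms differed among themselves in the sign of their differences, and none was called. Pcdhac2, the highest alpha member per kb, read 2049, 2357 and 2079 in the controls and 1648, 1847 and 1829 in the Kir2.1 mice, without overlap, a log2 fold change of -0.28 with SE 0.087 (limma, Benjamini-Hochberg adjusted p = 0.289). Pcdhac1 read 489, 569.9 and 463 against 424, 453 and 443, at -0.20 (SE 0.11, limma adjusted p = 0.574). Both alpha C-type isoforms were thus lower in every Kir2.1 mouse, by amounts that did not pass the test. Pcdhgc3 read 3502, 4166 and 4142 against 3417, 3933 and 3696, and its 95% interval of -0.32 to 0.13 on the log2 scale spanned 0. Pcdhgc4, a C-type isoform known to support the survival of neurons, read 1547, 1358 and 1039.5 against 1473, 1518 and 1733, with a log2 fold change of 0.28 and an interval of -0.078 to 0.63. Pcdhgc5 was near the bottom of the gamma cluster at 34.9 to 67.7 in the controls and 50.9 to 74.6 in the Kir2.1 mice. All 3 gamma C-type isoforms overlapped between the groups.

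Of the 19 gamma genes other than the C-type isoforms, 18 had lower values in the Kir2.1 mice and 1 had a higher one. Pcdhgb5 was the only gamma member at an unadjusted p under 0.05, with 324, 341 and 285 in the controls and 222, 248 and 278 in the Kir2.1 mice and a log2 fold change of -0.34 (SE 0.13, limma Benjamini-Hochberg adjusted p = 0.404). Pcdhgb6, the highest of the alternative gamma isoforms per kb, overlapped at 757, 889 and 836 against 809, 743 and 891, with a 95% interval of -0.27 to 0.22. The 3 C-type isoforms made up 41.2, 41.5 and 41.7% of the summed gamma counts in the controls and 42.9, 46.5 and 44.6% in the Kir2.1 mice. The shares were higher in each Kir2.1 mouse than in any control. In the alpha cluster the C-type share overlapped, at 33.8 ± 1.78% and 36.6 ± 3.00% (SD, n = 3).

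Summed over the cluster, the alpha counts were 7569, 8209 and 7913 in the controls and 5763, 5775 and 6699.6 in the Kir2.1 mice. A read shared between members of 1 cluster counts in its sum whichever member it was assigned to. Reads assigned to Gm42416, at 201 normalized counts in Kir2.1 mouse 3, are outside the cluster sums. The beta sum was 7406, 7514 and 7429 against 5648, 5621 and 5875. Neither sum overlapped between the groups, and the means differed by -23.0% for alpha and -23.3% for beta. Without Pcdhb1 the beta sum was 4284 ± 5.13 in the controls and 3725 ± 167 in the Kir2.1 mice (SD, n = 3), a difference of -13.0%. The gamma sum overlapped by a narrow margin, at 12331, 13445 and 12577 against 11515, 11841 and 12336, a mean difference of -6.94%. The sum of the mature neuron markers in the Kir2.1 mice was 0.715 of that in the controls, beside 0.770 for alpha, 0.767 for beta and 0.931 for gamma. The immature neuron markers were at 0.954, with 5 of 8 lower and none called.

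**Figure D5:**
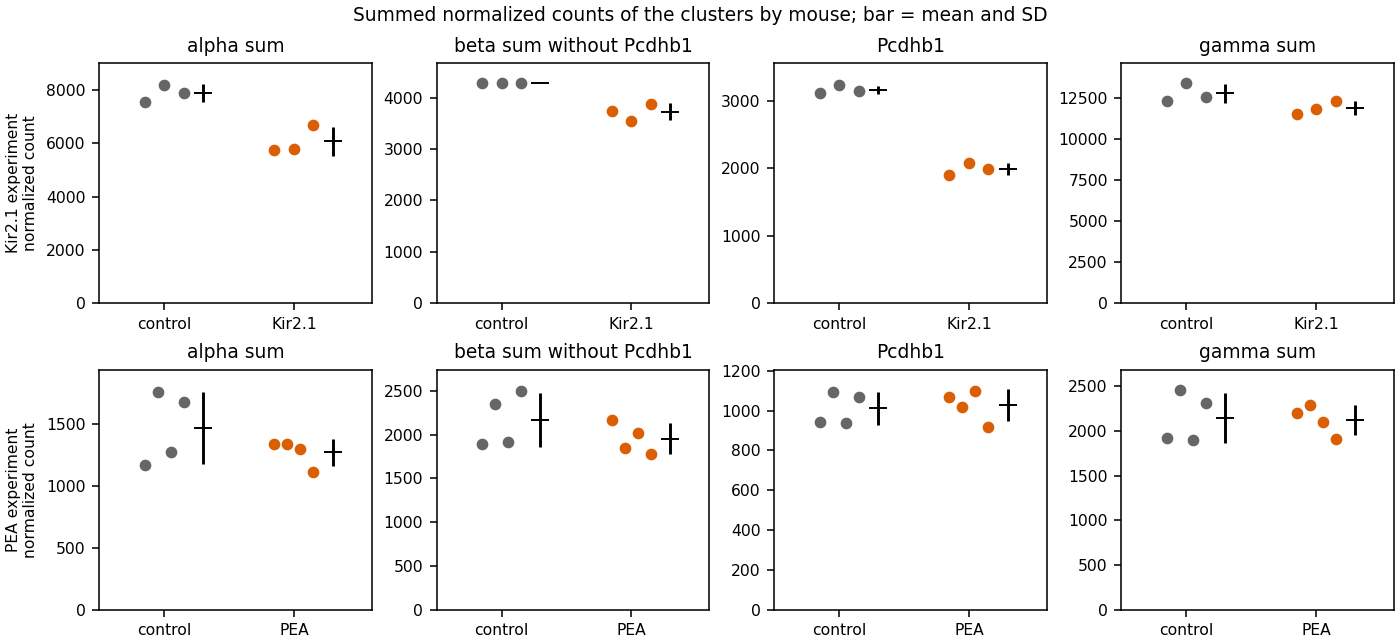
Summed normalized counts by mouse for the alpha cluster, the beta cluster without Pcdhb1, Pcdhb1 alone and the gamma cluster, in the Kir2.1 experiment (top, 3 mice a group) and the PEA experiment (bottom, 4 mice a group), with mean and SD. In the top row the alpha, beta and Pcdhb1 points of the 2 groups are apart and the gamma points overlap, and in the bottom row all 4 quantities overlap.

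PEA exposure from P0 to P5 left no member past the test. Of the 57, 37 were lower and 20 higher, with a median log2 fold change of -0.13 against -0.022 over all genes, of which 53.5% were lower. None was called in either direction (background, 0.0346% of genes called lower and 0.144% called higher), and the smallest adjusted p was 0.266 (limma, Benjamini-Hochberg). At an unadjusted p under 0.05, 2 members were lower, against 6.04% of all genes, and 0 higher, against 8.93%. For 2 members, Pcdhb20 and Pcdhga3, all exposed mice lay below all controls, against 3.86% of all genes, and for 0 members above, against 5.46%. The alpha genes were lower in 12 of 13 cases (median -0.18), the beta genes in 16 of 22 (median -0.14) and the gamma genes in 9 of 22 (median 0.060). These medians moved with single mice. Without PEA control mouse 4 they were -0.11 for alpha and -0.030 for beta, and without exposed mouse 4 -0.12 and -0.083. Without control mouse 1 or 3 the alpha median was -0.32 or -0.29, and the gamma median -0.0051 or -0.017. A member's 95% interval had a median width of 0.89 on the log2 scale, wider than in the Kir2.1 experiment although it held more mice.

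The most abundant member per kb, Pcdhb1, read 945, 1095, 937 and 1067 in the PEA control mice and 1071, 1020.0, 1098 and 918 in the exposed mice, with full overlap. The log2 fold change was 0.023 with SE 0.10 and a 95% interval of -0.20 to 0.24 (limma, Benjamini-Hochberg adjusted p = 0.939), and the interval of the Kir2.1 experiment lies wholly below this one. The difference between the experiments, which share no mice and no library preparation, was not tested. Of the 9 mature neuron markers 5 were lower here, none was called, and their sum in the exposed mice was 0.964 of the control sum. Omp itself was higher in every exposed mouse than in any control, at 6087 to 7326 in the controls and 7510.1 to 10082 in the exposed mice (log2 fold change 0.31, limma adjusted p = 0.252). Pcdhb1 divided by Omp in the same mouse and multiplied by 1000 was 140.5, 154, 154 and 146 in the controls and 143, 101, 130.3 and 117 in the exposed mice, which overlapped. The 4 horizontal basal cell markers were all higher, with summed values of 739 to 908 in the controls against 989 to 1162. Of 127 vomeronasal genes tested, 123 were lower. Every other cell type list held markers of both signs.

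Pcdhb20 gave the smallest p of the members under PEA. It read 87.3, 104, 77.0 and 95.1 in the controls and 69.4, 75.7, 67.5 and 51.5 in the exposed mice, without overlap, a log2 fold change of -0.46 with SE 0.18 (limma adjusted p = 0.266). The two-sided exact permutation p was 0.0286, the smallest that 4 mice against 4 allow. In the Kir2.1 experiment it was at -0.26 with SE 0.11 (limma adjusted p = 0.462). Pcdhb6 read 28.6, 47.2, 36.3 and 65.9 against 32.3, 22.8, 31.9 and 22.3, overlapping, at -0.64 (SE 0.29, limma adjusted p = 0.332), and in the Kir2.1 experiment its difference had the opposite sign, 0.39 (SE 0.34).

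The cluster sums overlapped between the PEA groups. The alpha sum was 1167, 1763, 1274 and 1675 in PEA control mice 1 to 4 and 1341, 1342, 1295 and 1114 in the exposed mice. The gamma sum was 1920.0, 2457, 1898 and 2311 against 2204, 2290.0, 2099.5 and 1908. Control mice 2 and 4 were the highest of the controls in both, and the exposed mice lay within or just below the control range. The C-type share of the alpha sum was 40.1 ± 2.75% in controls and 40.01 ± 2.32% in exposed mice, and that of the gamma sum 20.2 ± 0.852% and 21.1 ± 2.48% (SD, n = 4). Without the 4 mice that carried vomeronasal RNA, which leaves 1 control mouse whose spread is assumed to be that of the other mice, 47 of 57 members were lower and the median log2 fold changes were -0.57 for alpha, -0.39 for beta and -0.14 for gamma, with 0 members called. The remaining control, mouse 4, was among the highest for all 3 sums.

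Genes that act on the clusters were read from a list of 25 regulators of promoter choice and chromatin, of which 24 were found and tested (the symbol Znf143 was not matched). In the Kir2.1 experiment 14 had lower and 10 higher values, with a median log2 fold change of -0.0092, none was called, and Rest, a repressor of neuronal genes, had the only unadjusted p under 0.05, at 0.24 (limma adjusted p = 0.437). In the PEA experiment 16 were lower and 8 higher, again with none called, but an unadjusted p under 0.05 was reached by 6 with a lower and 2 with a higher value, shares to set beside the 6.04% and 8.93% of all genes. Wapl, which releases cohesin from DNA, read 3221, 3068, 3436 and 3134 in the controls and 2704, 2545, 2591 and 2715 in the exposed mice, at -0.28 (SE 0.080, limma adjusted p = 0.157). Rad21, a cohesin subunit, read 2099, 2546, 2409 and 2219 against 1828, 1929, 1999 and 2028, at -0.25 (SE 0.091, limma adjusted p = 0.249). In both genes all exposed mice lay below all controls. Tet1, which oxidizes methylated cytosine, was at -0.35 and Ldb1, a partner of LIM homeodomain factors, at 0.36. Dnmt3b, a DNA methyltransferase, was at 0.44 (limma adjusted p = 0.276, 0.270 and 0.278 in that order). Also lower at an unadjusted p under 0.05 (limma) were Smc3 (-0.23), Nipbl (-0.23) and Pds5b (-0.32). Mau2 was higher in all exposed mice than in any control, at 0.22 (limma adjusted p = 0.374).

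Of 26 genes for proteases, kinases and cytoskeletal partners of the protocadherin proteins, 16 were lower and 10 higher in each experiment and none was called. In the Kir2.1 experiment Nlgn2, a synaptic adhesion protein, was at 0.45 (limma adjusted p = 0.295), with all Kir2.1 mice above all controls. In the PEA experiment Psen2, a catalytic subunit of gamma-secretase, read 287, 337, 333 and 491 in the controls and 609.9, 794, 565 and 482 in the exposed mice, overlapping, at 0.76 (SE 0.19, limma adjusted p = 0.131). Chmp2b, of the machinery that sorts membrane proteins into endosomes, was at -0.33 (limma adjusted p = 0.291).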

How the data were processed

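The deposited values are a signal per gene: the authors estimated transcript abundance with Salmon 1.3.0 against Ensembl release 100 (GRCm38), summed it per gene with tximport and normalized it with DESeq2 1.30.0, separately for the 2 experiments. Libraries were single-end: poly-A selected, unstranded and 40 bases long for Kir2.1, rRNA-depleted, stranded and 150 bases long for PEA. Whole reads could not be recovered from the values, so depth is unknown and no counting interval is given. All columns were matched to mice by name, and 0 columns of mice were left unused. Values were tested as log2(value + 1), for genes with a mean of at least 10, with limma 3.58.1 (R 4.3.3; trended empirical Bayes) within each experiment, adjusted over all genes tested. Fold changes on this scale understate those of low genes. The Kir2.1 controls were littermates of the Kir2.1 mice per the methods, but mice were not matched to litters. Single values were also tested with two-sided exact permutation over all regroupings of the mice. Spearman's rho was computed with scipy 1.17.1. The script was tested on simulated data. Deviations of same-numbered mice did not correlate above 0.1 in every pair, so mice were not treated as paired. Unique windows were counted on sense sequences of GENCODE vM21 transcripts, whose release differs from that used for quantification.

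Named were members with an adjusted or unadjusted p under 0.05, the C-type isoforms and the 3 most abundant of each cluster in the Kir2.1 controls (19 genes). Pcdha1, Pcdha4, Pcdha8, Pcdha11 and Pcdhga3 were named after their values were seen. From the regulator and partner lists, genes with an unadjusted p under 0.05 were named, at most the 5 smallest a list and experiment. Smc3, Nipbl, Pds5b and Mau2 were added after their values were seen. Members and lists were chosen with earlier results of these data known. Alternatives were other pseudocounts, filters, scalings, limma settings, covariates, thresholds, a replicate block and each mouse left out. Sex-linked genes served only as a covariate.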

Additional observations from a re-analysis of the deposited data

Results flagged for a closer look

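In 44 sets of 4 values (the 19 named members and the 3 cluster sums, in each PEA group), 2 held a mouse far from the other 3, where chance gives about 1 in 20. Pcdha6 was at 95.6 normalized counts in PEA control mouse 4 and at 69.9 to 71.5 in the other 3 controls. Pcdhgc3 was at 452 in PEA-exposed mouse 2 and at 319.9 to 332 in the other 3 exposed mice. Gm42416, a fusion gene model that is no member, was at 201 in Kir2.1 mouse 3 and at 0 in all control mice.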

How the results depend on the processing

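Of 1028 alternative values, 957 were classed as unchanged from the main result, 32 as moved, 32 as reversed and 7 as weaker. The unchanged class allows small shifts, also across 0. The PEA gamma median was in it at 0.060 in the main fit and -0.0051 or -0.017 without PEA control mouse 1 or 3. Kir2.1 members lower numbered 46 to 51 and PEA members lower 29 to 47 over all alternatives. The Pcdhb1 call held in 11 of 18 alternatives. Members called were 0 with no trend, the replicate block or the vomeronasal covariate, where the adjusted p of Pcdhb1 was 0.0898, 0.0799 and 0.0689, and 0 to 1 with a mouse left out. Genes called in the Kir2.1 experiment numbered 20 with no trend, 9 with the replicate block, 22 with the vomeronasal covariate, 44 with the sex covariate, 171 at a threshold of 0.10 and 23 to 44 with a mouse left out. In the PEA experiment they numbered 52 with no filter, 20 with the vomeronasal covariate, 128 at a threshold of 0.10, 49 without the 4 mice with vomeronasal signal (added after seeing the data) and 19 to 43 with a mouse left out. The Kir2.1 beta median was -0.23 with median centring, -0.24 with the vomeronasal covariate and -0.24 to -0.18 with a mouse left out, and the beta sum ratio 0.747 with median centring. Without the 4 mice the PEA medians were -0.57, -0.39 and -0.14 for alpha, beta and gamma. Some log2 fold changes changed sign: for Kir2.1, Pcdhgc5 (-0.079, vomeronasal covariate; -0.069 to 0.40, mouse left out) and Pcdhgb6 (-0.091 to 0.040). For PEA, Pcdhb1 gave -0.027 with median centring, -0.079 without the 4 mice and -0.013 to 0.075 with a mouse left out; Pcdhgc3 -0.032, -0.0097 (quantile), -0.013 (vomeronasal covariate) and -0.10 to 0.11; Pcdhb17 0.0048 (sex covariate) and -0.11 to 0.098; Pcdha7 -0.63 without the 4 mice and -0.11 to 0.25; Pcdhgc5 -0.19 without the 4 mice. With a mouse left out, Pcdhgc4 ran from -0.055 to 0.20, Pcdha12 from -0.22 to 0.10, Pcdhac2 from -0.20 to 0.00052 and Pcdhgb5 from -0.12 to 0.062. The PEA medians ran from -0.32 to -0.11 (alpha), -0.21 to -0.030 (beta) and -0.017 to 0.093 (gamma) with a mouse left out. The causes were not tested. Same-numbered mice correlated at -0.0585, -0.0106 and 0.155 (Kir2.1) and at 0.135, -0.0200, -0.0506 and 0.102 (PEA) in their deviations from the group means, so the replicate block pairs numbers only. The number of mice limits what a single gene can show.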
